A study of Mus musculus with 18 samples.

Results

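Lipocalin 2 and 9 genes that take up, store, oxidise or release iron were followed in the retina of mice exposed to bright light and treated with an inhibitor of galectin-3. The 10 genes (Lcn2, Hmox1, Fth1, Ftl1, Trf, Tfrc, Slc11a2, Slc40a1, Cp and Heph) were taken by their symbol from a table of 23420 gene symbols, and all 10 had enough reads to be among the 15196 genes tested. They were selected on the fold changes of these same libraries, in which several of them differed between the groups. Their differences are therefore described with their errors and without p-values, and counts of members called stand as a description of that choice. Test results are given only for genes outside the 10. The lists of those genes were also chosen with earlier results of these data known, so their p-values and counts are descriptive as well.

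RNA of whole retinas was sequenced from 9 wild-type Balb/cJ mice, an albino strain, in 3 groups of 3. Naïve mice saw no bright light and got no treatment. Mice treated with vehicle (vehicle mice below) were exposed to 15000 lux for 1 h and injected with DMSO, and mice treated with TD139 (TD139 mice) had the same light and were injected with TD139, a small-molecule galectin-3 inhibitor, at 15 mg/kg. Retinas were taken 4 days after light, and the mice were young adults of both sexes, given their injections into the abdominal cavity every day from the day before light. Because naïve mice were not injected, light, injection and DMSO cannot be told apart where vehicle mice are set against naïve mice. Whole retina was measured, so fewer cells of a type and less RNA per cell cannot be told apart either.

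Between 26171887 and 30201517 reads were counted on genes in a mouse, and values are given as CPM, the usual scaling of counts to library size, here after TMM. A count of 3, below which a gene was not taken as detectable, stood for 0.0993 to 0.115 CPM before that scaling. Vehicle mouse 2 stood apart by skeletal muscle genes, looked at after its values were seen: Ckm was at 197 CPM there and between 0.269 and 0.807 CPM in the other 8 mice. The summed markers of the retinal pigment epithelium were also highest in that mouse, at 640 CPM against 223 to 408 CPM in the others. Fold changes of TD139 mice followed transcript length and GC content across 15068 genes. The Spearman correlation with length was 0.49 against vehicle and 0.61 against naïve mice, and that with GC content −0.37 and −0.42. For vehicle against naïve mice they were −0.10 and 0.12. Genes are not replicates, so these values carry no test. A length and GC correction was therefore run, and its values are given for a member where a log2 fold change moved by more than 0.25 or turned its direction.

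Iron is needed for the visual cycle and for energy metabolism, but free ferrous iron drives the formation of radicals. Cells import iron bound to transferrin through the transferrin receptor, move it out of endosomes by the divalent metal transporter, keep it in shells of ferritin heavy and light chains, and export it by ferroportin together with a copper oxidase, ceruloplasmin or hephaestin. Haem oxygenase 1 sets iron free from haem. Lipocalin 2 is a secreted protein that binds iron-loaded siderophores and is made by many tissues in inflammation. Ferritin, ferroportin and the transferrin receptor are also controlled after transcription, by iron regulatory proteins that bind hairpins in their messages.

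These hairpins, the iron-responsive elements, are shown because they mark the members known to be controlled by these proteins. Bound ahead of the coding region they hold back translation, which the RNA level does not show, whereas those of Tfrc protect its message from decay. A search of the untranslated regions of GENCODE M21 transcripts (build GRCm38) asked for an unpaired C, 5 paired bases, the loop CAGTGN and the paired bases on the other side, in a window of 28 bases, with G-T pairs allowed. It found a match ahead of the coding region of Fth1, Ftl1 and Slc40a1 and 4 matches behind that of Tfrc. In the lines below, capitals mark the unpaired C and the loop, and each sequence is on the strand of its gene.
Fth1 5′ UTR, chr19:9982733-9982760, plus strand: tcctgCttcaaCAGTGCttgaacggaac
Ftl1 5′ UTR, chr7:45459779-45459806, minus strand: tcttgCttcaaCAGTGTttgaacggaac
Slc40a1 5′ UTR, chr1:45925465-45925492, minus strand: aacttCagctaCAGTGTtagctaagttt
Tfrc 3′ UTR, chr16:32631220-32631247, plus strand: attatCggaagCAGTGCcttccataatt
Tfrc 3′ UTR, chr16:32631599-32631626, plus strand: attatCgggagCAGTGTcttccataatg
Tfrc 3′ UTR, chr16:32631664-32631691, plus strand: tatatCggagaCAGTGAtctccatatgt
Tfrc 3′ UTR, chr16:32631711-32631738, plus strand: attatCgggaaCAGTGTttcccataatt
Of all protein-coding genes with such regions, 0.14% had a match in a 5′ UTR and 0.63% in a 3′ UTR. The other 6 members had none, which says only that these letters were not found. Slc11a2 has a form with a known hairpin that this strict pattern does not match. A match is a description of the sequence, and RNA levels do not measure its use.

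Lcn2, which encodes lipocalin 2 (ENSMUSG00000026822.14, chromosome 2, 32384633 to 32388252, minus strand, GRCm38), had the widest range of the 10 genes as a ratio of the highest to the lowest CPM. Naïve mice 1, 2 and 3 had 5.19, 4.11 and 5.86 CPM. Vehicle mice had 182, 213 and 447 CPM, and TD139 mice 23.6, 2.64 and 2.33 CPM. All vehicle mice were above every naïve and every TD139 mouse, and TD139 mouse 1 was above the naïve mice while the other two lay below them. The means were 5.05 CPM in naïve, 280.7 CPM in vehicle and 9.53 CPM in TD139 mice. Its log2 fold change was 5.80 (standard error 1.07) for vehicle against naïve mice and −4.88 (1.02) for TD139 against vehicle mice. For TD139 against naïve mice it was 0.91 (0.98), and it turned to −1.01 without TD139 mouse 1. Without that mouse the change against vehicle mice was −6.82. With the length and GC correction, the values for TD139 mice were −4.44 against vehicle and 1.24 against naïve mice.

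**Figure D1:**
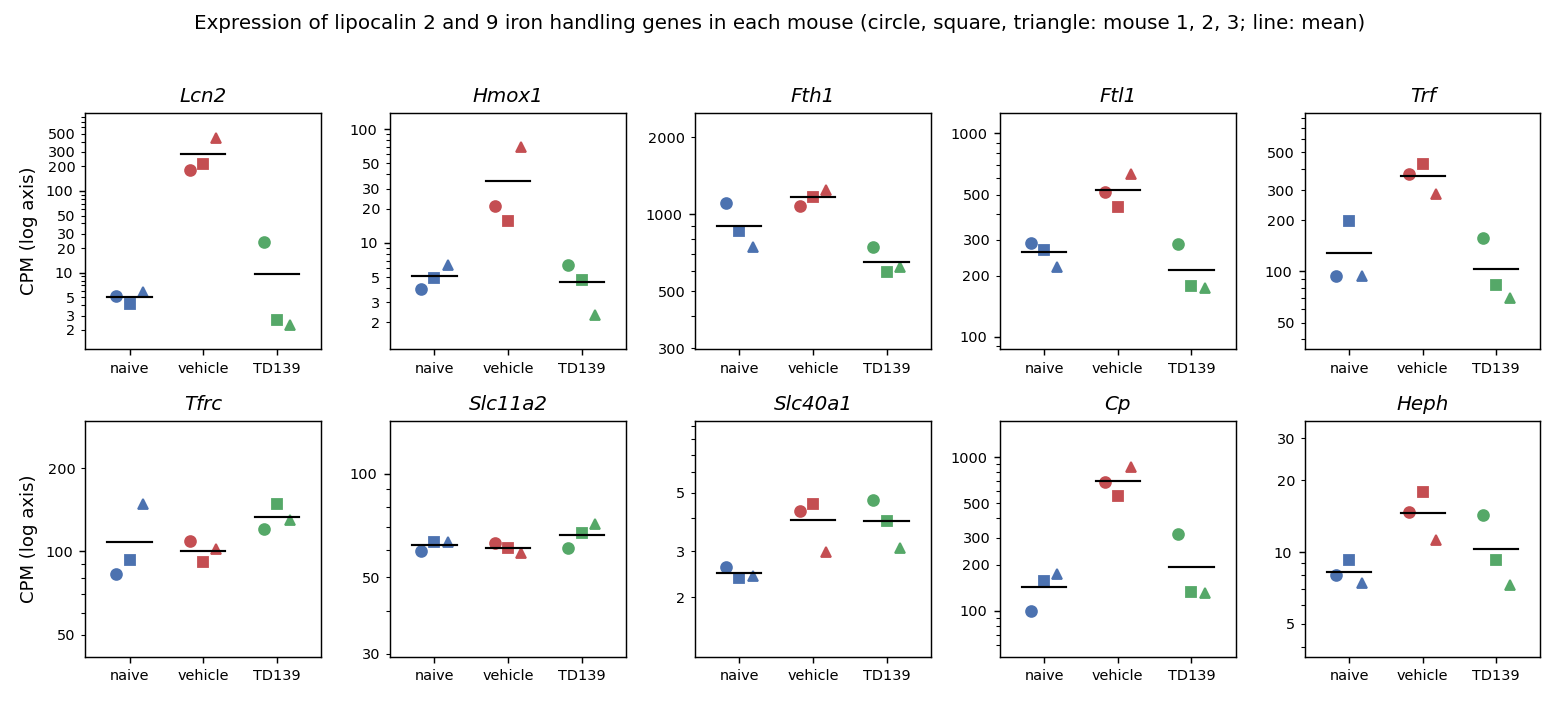
CPM of each of the 10 genes (log axis, a scale of its own for each gene) in the 3 naïve, 3 vehicle and 3 TD139 mice, where circle, square and triangle are mouse 1, 2 and 3 of a group and the line is the group mean. Lcn2 lies between 182 and 447 CPM in vehicle mice and at 23.6 CPM or less in all others, while Slc11a2 stays between 58.8 and 71.3 CPM in all 9 mice.

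Lipocalin 2 is stored in the granules of neutrophils, so neutrophil markers were looked at beside it. Of 11 such markers in the table, 6 (S100a9, Elane, Ngp, Camp, Retnlg and Cxcr2) had at most 3 counts in every mouse. Their summed level, all 11 markers together, was 0.384 to 0.806 CPM in naïve, 2.93 to 4.76 CPM in vehicle and 0.452 to 2.11 CPM in TD139 mice, of which the receptor gene Csf3r made up 2.11 to 2.49 CPM in vehicle mice. Lactoferrin (Ltf), another granule protein, was at 2.12 CPM in vehicle mouse 2 and at 0.0733 CPM or less in all others. The 10 microglia and macrophage markers together lay at 46.9 to 56.6 CPM in naïve, 163 to 262 CPM in vehicle and 39 to 109 CPM in TD139 mice, where the highest TD139 value was that of mouse 1. None of these 10 markers was at 0 in every mouse. The part of these cells in the level of Lcn2 was not tested.

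Hmox1, which encodes the inducible haem oxygenase (ENSMUSG00000005413.8, chromosome 8, 75093621 to 75100589, plus strand), was at 3.92, 4.90 and 6.45 CPM in naïve mice. It was at 21.1, 15.4 and 69.1 CPM in vehicle mice and at 6.45, 4.77 and 2.33 CPM in TD139 mice. Each vehicle mouse was above all other mice, mouse 3 by far, and naïve and TD139 mice overlapped. The log2 fold change was 2.79 (0.64) for vehicle against naïve mice, 1.84 without vehicle mouse 3, and −2.96 (0.64) for TD139 against vehicle mice, −2.02 without the same mouse. For TD139 against naïve mice it was −0.17 (0.62). The length and GC correction moved the latter 2 values to −2.59 and 0.08. Haem of red cells is a substrate of this enzyme. The 4 haemoglobin genes of the marker list (Hba-a1, Hba-a2, Hbb-b1 and Hbb-b2) were listed at 0 in all 9 mice. The haemoglobin genes have near-identical copies, and how such reads were counted is not given in the sources used here, so these zeros do not measure red cells. The 7 red cell markers together reached 0.987 CPM at most, in vehicle mouse 2, which was Alas2 alone.

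Per kb of transcript the ferritin genes were the most abundant members. Fth1, the heavy chain that oxidises ferrous iron (ENSMUSG00000024661.7, chromosome 19, 9980598 to 9985098, plus strand), had 1109, 859 and 744 CPM in naïve mice, 1080, 1172 and 1243 CPM in vehicle mice and 746, 595 and 621 CPM in TD139 mice. Vehicle mice overlapped with naïve mouse 1 and were all above the TD139 mice. Fth1 had a log2 fold change of 0.37 (0.15) for vehicle against naïve mice, −0.83 (0.15) for TD139 against vehicle mice and −0.47 (0.15) for TD139 against naïve mice.

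Ftl1, the light chain that aids the forming of the iron core (ENSMUSG00000050708.16, chromosome 7, 45457944 to 45459884, minus strand), differed more than Fth1 between vehicle mice and either other group. It was at 290, 269 and 221 CPM in naïve, 515, 432 and 628 CPM in vehicle and 285, 178 and 174 CPM in TD139 mice. The vehicle mice lay above all 6 others, and TD139 mouse 1 lay among the naïve mice with the other two below them. For Ftl1 the log2 fold change was 1.02 (0.21) for vehicle against naïve, −1.31 (0.21) for TD139 against vehicle and −0.29 (0.20) for TD139 against naïve mice. Both ferritin transcripts are short, at 929 and 968 bases. After the length and GC correction, the change for TD139 against vehicle mice was −0.36 for Fth1 and −0.76 for Ftl1. Against naïve mice it became −0.07 for Fth1 and 0.14 for Ftl1, so the lower ferritin level in TD139 than in naïve mice was almost gone for Fth1 and turned for Ftl1. GENCODE M21 holds 4 ferritin pseudogene loci, none of which is in the count table, and how reads that fit several of these copies were counted is not given in the sources used here.

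On the side of uptake, Trf, which encodes the iron carrier transferrin (ENSMUSG00000032554.15, chromosome 9, 103204001 to 103230444, minus strand), was at 94.0, 197 and 94.2 CPM in naïve mice. It was at 372, 426 and 286 CPM in vehicle and 157, 83.0 and 69.9 CPM in TD139 mice. The vehicle mice did not overlap with either other group, and the log2 fold change was 1.49 (0.41) against naïve mice and −1.81 (0.41) for TD139 against vehicle mice. For TD139 against naïve mice it was −0.31 (0.40), and 0.15 without naïve mouse 2. That naïve mouse and vehicle mouse 2 had the highest Trf of their groups, and each also had the highest sum of the 10 retinal pigment epithelium markers of its group, 395 and 640 CPM. The ranges of that sum were 240 to 395 CPM in naïve, 340 to 640 CPM in vehicle and 223 to 295 CPM in TD139 mice, with no marker at 0 in every mouse, and its part in the Trf values was not tested. Without vehicle mouse 2 the change of Trf was 1.35 against naïve and −1.67 for TD139 against vehicle mice. The 8 oligodendrocyte markers, another cell type that makes transferrin, summed to 64.8 to 93.2 CPM in naïve, 73 to 77.8 CPM in vehicle and 60.6 to 63.5 CPM in TD139 mice, with Mog at 3 counts or fewer in each.

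Tfrc, which encodes transferrin receptor 1 (ENSMUSG00000022797.16, chromosome 16, 32608920 to 32632794, plus strand), ran differently from the ferritins. It was at 83.0, 93.3 and 148 CPM in naïve, 109, 91.3 and 102 CPM in vehicle and 120, 148 and 130 CPM in TD139 mice. All TD139 mice were above all vehicle mice, and naïve mice spanned both. Such a separation, with TD139 mice above, held for 26.1% of all tested genes. Its log2 fold change was −0.11 (0.19) for vehicle against naïve, 0.40 (0.19) for TD139 against vehicle and 0.29 (0.19) for TD139 against naïve mice. Its transcript is long, at 4890 bases, and after the length and GC correction the latter 2 values were −0.10 and −0.12. The direction of Tfrc in TD139 mice thus depended on this correction.

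Slc11a2, which encodes the divalent metal transporter DMT1 (ENSMUSG00000023030.16, chromosome 15, 100387898 to 100425072, minus strand), was the most even member. Its 9 values lay between 58.8 and 71.3 CPM, and no pair of groups was free of overlap. The log2 fold changes were −0.03, 0.13 and 0.10 for vehicle against naïve, TD139 against vehicle and TD139 against naïve mice, each with a standard error of 0.09. With the length and GC correction they were 0.01, −0.04 and −0.03.

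On the side of release, Slc40a1, which encodes the exporter ferroportin (ENSMUSG00000025993.10, chromosome 1, 45908068 to 45926523, minus strand), was low. It was at 2.61, 2.37 and 2.42 CPM in naïve, 4.25, 4.55 and 2.99 CPM in vehicle and 4.71, 3.90 and 3.08 CPM in TD139 mice. Both light-exposed groups lay above the naïve mice and overlapped with each other. In TD139 against naïve mice this separation held for 15.4% of all tested genes. The log2 fold change was 0.67 (0.25) for vehicle against naïve, −0.01 (0.24) for TD139 against vehicle and 0.66 (0.25) for TD139 against naïve mice. With 63 counts in naïve mouse 2, the 2 sequencing runs of that mouse differed 1.78 times, and the change for TD139 against naïve mice was 0.42 in the first run and 0.96 in the other.

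Cp, which encodes ceruloplasmin, the copper oxidase that loads iron onto transferrin (ENSMUSG00000003617.16, chromosome 3, 19957054 to 20009145, plus strand), was at 101, 157 and 173 CPM in naïve mice. It was at 686, 556 and 864 CPM in vehicle and 315, 133 and 130 CPM in TD139 mice. Vehicle mice were above all others, TD139 mouse 1 lay between the groups, and TD139 mice 2 and 3 lay within the naïve range. The log2 fold change was 2.29 (0.40) for vehicle against naïve, −1.86 (0.39) for TD139 against vehicle and 0.42 (0.38) for TD139 against naïve mice, the latter −0.12 without TD139 mouse 1. With the length and GC correction the values for TD139 mice were −2.22 against vehicle and 0.15 against naïve mice. Müller glia make ceruloplasmin in the retina. The 8 Müller glia markers summed to 4150 to 4800 CPM in naïve, 5720 to 6170 CPM in vehicle and 4620 to 5510 CPM in TD139 mice, none of them at 0 in every mouse. Glul, with group means of 2586, 2897 and 2893 CPM, was the largest part of this sum. Of the 8 markers, 5 (Vim, Sox9, Slc1a3, Aqp4 and Dkk3) were called higher in vehicle than in naïve mice by edgeR at an adjusted p-value under 0.05, with log2 fold changes of 0.75 to 1.14, beside 4.91% of all tested genes. In TD139 against vehicle mice 3 were called lower, beside 16.2% of all tested genes, with Gfap at −2.96, Vim at −1.47 and Dkk3 at −0.51. Their part in the level of Cp was not tested.

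Heph, which encodes hephaestin, the membrane-bound relative of ceruloplasmin (ENSMUSG00000031209.14, chromosome X, 96455359 to 96574485, plus strand), was at 7.99, 9.23 and 7.44 CPM in naïve, 14.7, 17.8 and 11.3 CPM in vehicle and 14.3, 9.25 and 7.27 CPM in TD139 mice. Vehicle mice were above the naïve mice, and the TD139 mice spanned from below the naïve to within the vehicle range. Its log2 fold change was 0.83 (0.25) for vehicle against naïve, −0.50 (0.25) for TD139 against vehicle and 0.32 (0.25) for TD139 against naïve mice, and the second of these became −0.79 with the length and GC correction. Cp and Slc11a2 overlap a gene on the other strand, Heph and Ftl1 overlap genes on both strands, and Trf overlaps one on its own strand. The strand setting of the counting is not given in the sources used here, so reads of these pairs may not be told apart.

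**Figure D2:**
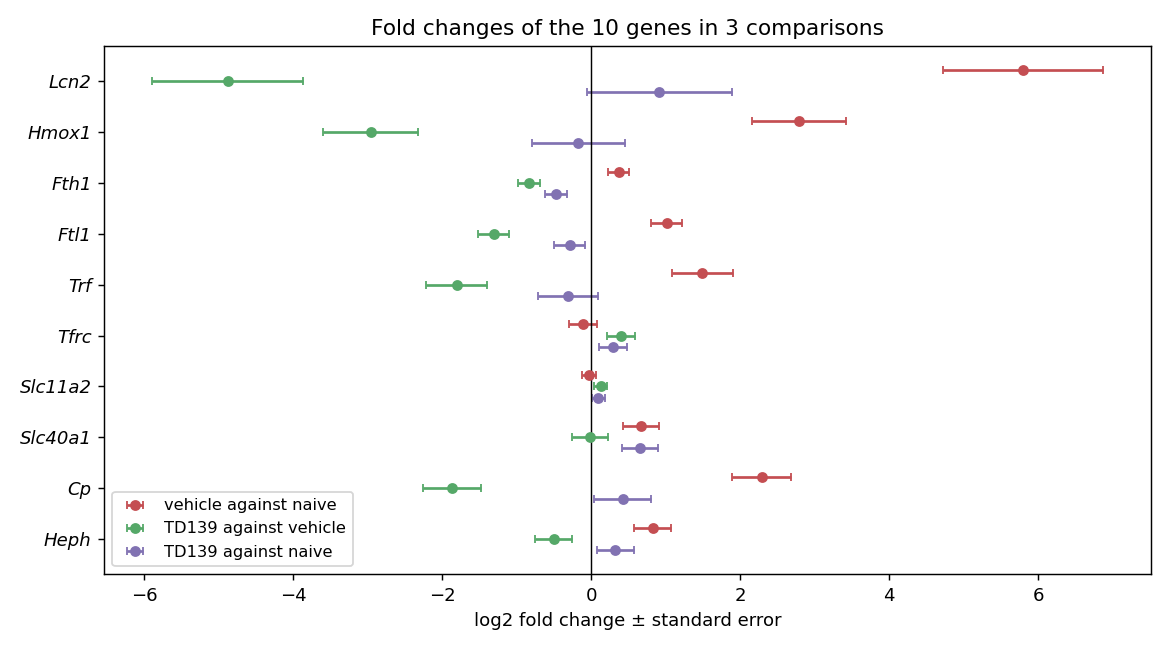
Log2 fold change of each of the 10 genes (points) with its standard error (bars) from the edgeR fit of all 9 mice, for vehicle against naïve, TD139 against vehicle and TD139 against naïve mice. Lcn2, Hmox1, Cp, Trf and Ftl1 are between 1.02 and 5.80 in the first and between −4.88 and −1.31 in the second comparison, while Tfrc and Slc11a2 lie within 0.40 of 0 in all 3.

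Counted together, 4 of the 10 genes (Lcn2, Hmox1, Cp and Ftl1) were called higher in vehicle than in naïve mice by edgeR, at an adjusted p-value under 0.05, where 4.91% of all tested genes were. In TD139 against vehicle mice 6 of 10 (the same 4, Fth1 and Trf) were called lower, where 16.2% of all tested genes were. In TD139 against naïve mice 0 of 10 were called in edgeR, where 5.1% of all genes were called in either direction. There, 2 members had an unadjusted p under 0.05 in edgeR, beside 4492 of the 15196 tested genes. DESeq2 called 1 member, beside 17.02% of all tested genes, and limma voom called 3, beside 36.05%. These counts describe how the genes were picked, and nothing is read from them. Both the first and the second comparison use the vehicle mice, so a high value in that group enters both. The median log2 fold change of the members was 0.92, −1.07 and 0.20 in the 3 comparisons, beside −0.00175, −0.0164 and −0.00227 for all tested genes. For 7 of the 10 genes every vehicle mouse was above every naïve mouse, as for 16.6% of all tested genes, and all TD139 mice were below all vehicle mice for 6, as for 25.4%. Without any of the 3 naïve mice, or without vehicle mouse 1 or 3, edgeR called 0 of the 10 genes in vehicle against naïve mice, and in these 5 fits between 1 and 249 of all genes were called in place of 1185. The log2 fold changes of the 4 genes kept their direction, with 5.29 to 6.04 for Lcn2, 1.84 to 3.07 for Hmox1, 2.10 to 2.45 for Cp and 0.87 to 1.11 for Ftl1. Without vehicle mouse 2 the same 4 genes were called. For TD139 against vehicle mice 2 were called without TD139 mouse 2 and 3 without TD139 mouse 3, where 1626 and 1917 of all genes were called in place of 5072.

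**Figure D3:**
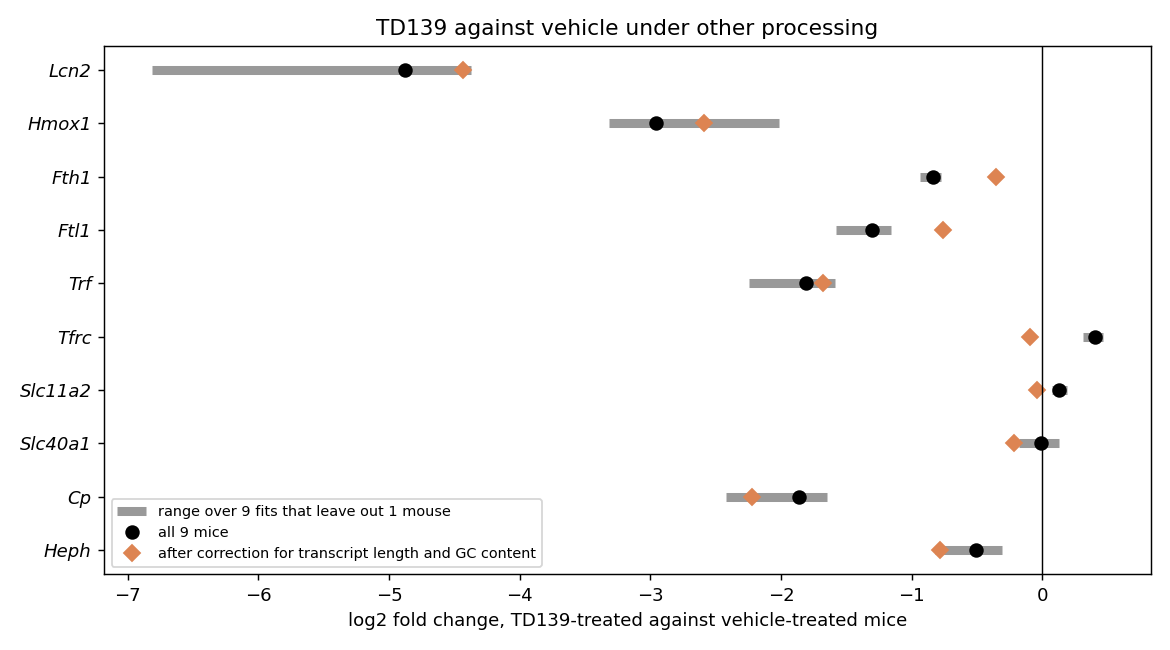
Log2 fold change of each gene for TD139 against vehicle mice from all 9 mice (circles), the range over the 9 fits that leave out 1 mouse (grey bars) and the value after the length and GC correction (diamonds). Fth1 moves from −0.83 to −0.36 and Tfrc from 0.40 to −0.10 with the correction, while Lcn2 is between −6.82 and −4.37 in the fits without 1 mouse.

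Levels were compared between genes as CPM per kb of transcript. Fth1 led in every group, with 973 ± 201 in naïve, 1254 ± 87.7 in vehicle and 704 ± 86.7 in TD139 mice (SD, n = 3), and Ftl1 came next with 269 ± 36.3, 543 ± 102 and 219.7 ± 65.0. In vehicle mice Lcn2 was the third, at 307 ± 158 CPM per kb, and its range overlapped with that of Ftl1, whereas in naïve mice it was the seventh, at 5.52 ± 0.968. Cp was at 31.9 ± 8.5, 156 ± 34.3 and 42.8 ± 23.6 CPM per kb in the 3 groups, and its range overlapped with that of Trf in each of them. Slc40a1 was last in each group, at 0.732 ± 0.0376, 1.17 ± 0.246 and 1.16 ± 0.241 CPM per kb, below Heph at 1.73 ± 0.194, 3.08 ± 0.691 and 2.17 ± 0.769, with no overlap between these neighbours. In TD139 mice the neighbours Slc11a2 and Lcn2, Lcn2 and Hmox1, and Hmox1 and Heph overlapped.

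Among 13093 tested genes that averaged 50 or more counts in a mouse, those whose log2 CPM over the 9 mice was most like that of Lcn2 were Pdlim3, H2-Q4, Csf1, Ctss and Pdpn, each with a Pearson r of 0.99. For Cp they were Cebpa, Msr1, Il10rb, Steap4 and C1qc, each with r = 0.99. For Hmox1 they were Tap1, 5430435G22Rik, Socs3, Slc24a6 and Endou, with r between 0.97 and 0.99. These values describe 9 libraries in 3 groups, which all genes share, and carry no test. Steap4, a metalloreductase that turns ferric into ferrous iron, was the only gene of the iron lists among these 15.

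Apart from the 10 members, the genes of 6 lists of iron metabolism were compared. The lists were chosen with earlier results of these data known, so their calls are a description. They held 86 tested genes. Of these, 8 rose and 1 fell in vehicle against naïve mice (edgeR, adjusted p-value under 0.05), which is 10.5% of them beside 7.8% of all tested genes, with a median log2 fold change of 0.06. The rises were mostly in the list of ferroptosis genes, where 5 of 14 rose and 0 fell. Slc7a11, the cystine importer, was at 8.22, 9.34 and 14.1 CPM in naïve and 37.7, 33.5 and 45.6 CPM in vehicle mice. Its log2 fold change was 1.88 (0.24, adjusted p = 0.0127 in edgeR). Its partner Slc3a2 rose by 0.55 (0.12, adjusted p = 0.0286), Gch1, which makes tetrahydrobiopterin, by 1.61 (0.36, adjusted p = 0.027), Chac1, which splits glutathione, by 1.33 (0.25, adjusted p = 0.0203), and Lpcat3, a phospholipid enzyme, by 0.74 (0.19, adjusted p = 0.0421). The glutathione peroxidase Gpx4, the most abundant gene of this list, had a log2 fold change of 0.09 (0.12, adjusted p = 0.659).

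Outside that list the calls were few. Steap3, an endosomal metalloreductase, rose by 0.88 (0.19, adjusted p = 0.025 in edgeR), Hebp1, a haem-binding protein, by 1.37 (0.36, adjusted p = 0.042), and Lrp1, the receptor for haem bound to haemopexin, by 0.42 (0.10, adjusted p = 0.0279). Cpox, an enzyme of haem synthesis, fell by 0.69 on the log2 scale (0.18, adjusted p = 0.043). In the lists of iron sensing and of iron-sulphur cluster assembly, 0 of 13 and 0 of 18 genes were called in edgeR. At an unadjusted p under 0.05 there were 2 and 0, DESeq2 called 1 and 0, and limma voom 2 and 0. With the length and GC correction edgeR called Fdxr of the iron-sulphur list, at −0.39 (adjusted p = 0.0442). Neo1 of the sensing list was called by edgeR, at 0.44 to 0.54, with library size alone, the replicate block, the first sequencing run alone or the 2 groups alone. The most abundant gene of the iron lists was Pcbp2, a chaperone that hands iron to ferritin, with a log2 fold change of −0.28 (0.10, adjusted p = 0.0979 in edgeR). Steap4 was at 0.115, 0.339 and 0.879 CPM in naïve and 36.7, 34.9 and 62.4 CPM in vehicle mice, and with an adjusted p of 0.0501 it missed the threshold at a log2 fold change of 6.62 (1.51). It passed with RLE scaling, the stricter filter, limma voom, the second sequencing run alone, the length and GC correction and the 2 groups alone, with adjusted p-values of 0.000612 to 0.0497, and in none of the fits that left out a mouse. Of the 9 calls, 0 were left without naïve mouse 2, 1 without naïve mouse 1, without naïve mouse 3 or without vehicle mouse 3, and 3 without vehicle mouse 1, fits in which few of all genes were called, as given above. Slc7a11 was called in 8 of the 9 fits that left out a mouse.

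**Figure D4:**
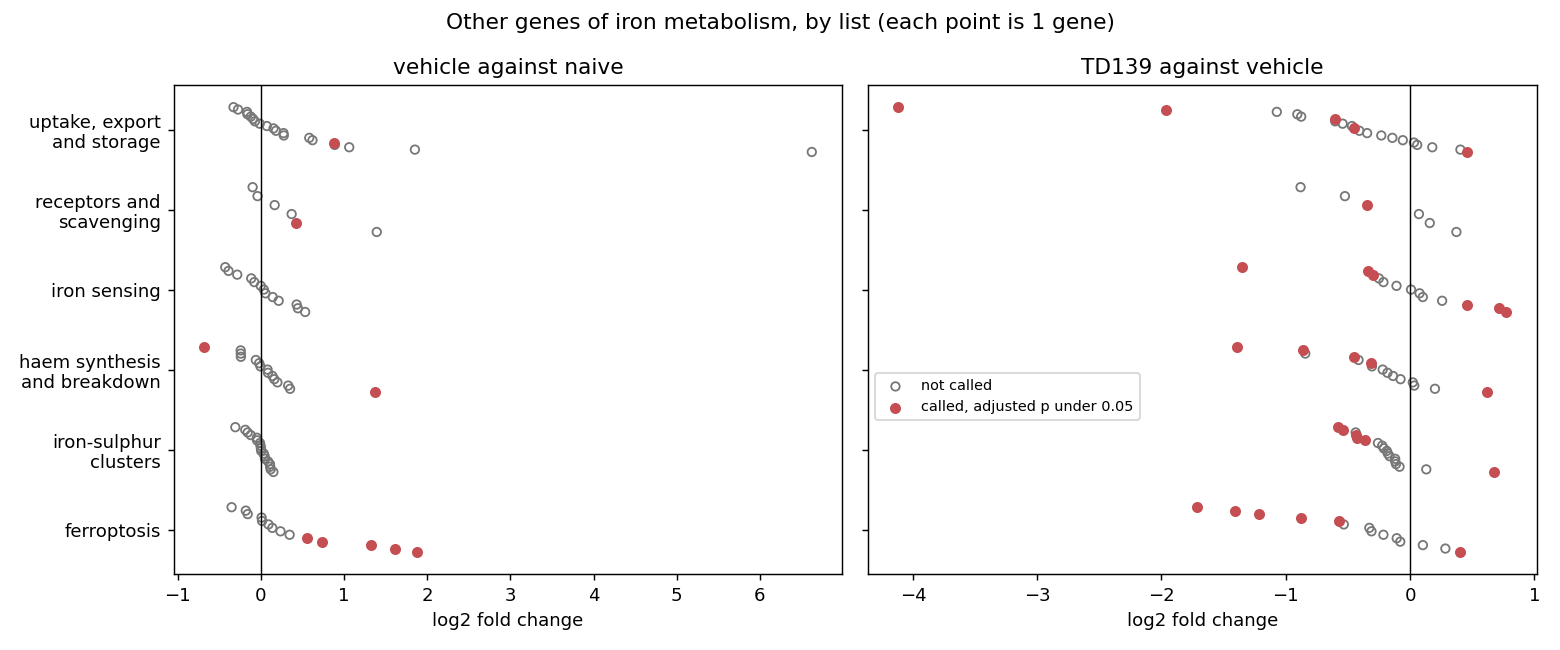
Log2 fold change of the 86 tested genes of iron metabolism outside the members, by list, for vehicle against naïve mice (left) and TD139 against vehicle mice (right). Filled points are genes with an adjusted p-value under 0.05 in edgeR, 9 on the left and 29 on the right, and the open point farthest to the right on the left side is Steap4 at 6.62.

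In TD139 against vehicle mice 7 of the 86 genes rose and 22 fell, which is 33.7% of them beside 33.4% of all tested genes, with a median of −0.22. In the ferroptosis list Slc7a11 fell by 1.41 on the log2 scale (0.24, adjusted p = 0.00568 in edgeR) to 19.5, 12.6 and 11.9 CPM, Slc3a2 by 0.87 (0.13, adjusted p = 0.005), Chac1 by 1.72 (0.26, adjusted p = 0.005), Gch1 by 1.21 (0.35, adjusted p = 0.0233) and Gpx4 by 0.57 (0.12, adjusted p = 0.00845). Acsl4, which activates polyunsaturated fatty acids, rose by 0.40 (0.14, adjusted p = 0.0475). Among the genes of uptake, export and storage, the metalloreductases Steap1 and Steap3 fell by 1.96 (0.60, adjusted p = 0.029 in edgeR) and 0.61 (0.19, adjusted p = 0.0291), while Steap2 rose by 0.46 (0.13, adjusted p = 0.0198). Steap4 was at 7.23, 0.209 and 0.277 CPM in TD139 mice, highest in mouse 1, and fell by 4.12 (1.26, adjusted p = 0.0479). It was called in 1 of the 9 fits that left out a mouse, and not with DESeq2, without a filter, with library size alone, with the replicate block, with the length and GC correction or with the 2 groups alone. Hebp1 fell by 1.39 (0.36, adjusted p = 0.0147), and the constitutive haem oxygenase Hmox2, at 64.9, 74.3 and 72.5 CPM in vehicle and 56.3, 50.6 and 48.1 CPM in TD139 mice, fell by 0.45 (0.12, adjusted p = 0.0146). Also in the haem list, Blvrb, a biliverdin reductase, fell by 0.86 and Alas1, which starts haem synthesis, by 0.31, while Cpox rose by 0.62.

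In the list of iron sensing, 3 of 13 genes rose and 3 fell, beside 33.4% of all tested genes called in either direction. Ireb2, which encodes iron regulatory protein 2, a binder of the hairpins shown above, was at 48.4, 37.1 and 43.3 CPM in vehicle and 60.1, 86.5 and 73.7 CPM in TD139 mice. It rose by 0.77 (0.16, adjusted p = 0.00733 in edgeR), and Bach1, a repressor of Hmox1, rose by 0.72 (0.20, adjusted p = 0.018). Fbxl5, which marks iron regulatory protein 2 for breakdown, rose by 0.46 (0.15, adjusted p = 0.0331). Hamp, the gene of hepcidin, was low, at 1.72, 2.04 and 1.58 CPM in vehicle and 0.667, 0.939 and 0.474 CPM in TD139 mice, and fell by 1.35 (0.37, adjusted p = 0.0192). In the list of iron-sulphur cluster assembly 5 of 18 genes (Glrx5, Fdx1, Bola3, Iscu and Nfu1) fell, by 0.36 to 0.58, where 16.2% of all tested genes did. After the length and GC correction Glrx5 was still called, at −0.49, while Fdx1 was at −0.15, Bola3 at −0.27, Iscu at 0.09 and Nfu1 at 0.02. Of the receptors of lipocalin 2, Slc22a17 fell by 0.35 (0.10, adjusted p = 0.0258), and was at −0.05 (adjusted p = 0.668) after the correction. It was not called without vehicle mouse 1 or 3 or TD139 mouse 2 or 3.

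Many of these calls changed with the correction. Of all tested genes 19.5% were called for TD139 against vehicle mice after the length and GC correction, in place of 33.4%. With this correction 16 of the 86 genes were called, and 10 of these were among the 29. They were Slc7a11, Slc3a2, Chac1, Gch1, Hebp1, Steap3, Slc48a1, Glrx5, Nfe2l2 and Cpox. Gpx4 went from −0.57 to 0.0019, Ireb2 from 0.77 to 0.18, Bach1 from 0.72 to 0.36, Fbxl5 from 0.46 to 0.09, Blvrb from −0.86 to −0.34 and Hmox2 from −0.45 to −0.20, none of them called after the correction, and Steap2 turned from 0.46 to −0.31 and Acsl4 from 0.40 to −0.16. Hamp went from −1.35 to −0.97 and lost the call. Other genes lost the call with little change in size, such as Steap4 at −4.23, Steap1 at −1.67 and Alas1 at −0.28. Leaving out TD139 mouse 2 or 3 left 8 calls each, leaving out vehicle mouse 3 left 10 and leaving out vehicle mouse 2 left 15. Gpx4, Glrx5, Slc48a1, Slc3a2, Chac1, Slc7a11 and Ireb2 were called in all 9 of these fits.

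In TD139 against naïve mice 3 of the 86 genes rose and 3 fell, which is 6.98% beside 5.1% of all tested genes. Among those that rose were Lrp1, by 0.49 (0.10, adjusted p = 0.0406 in edgeR), and Ireb2, by 0.66 (0.16, adjusted p = 0.0458). Slc25a28, a mitochondrial iron importer, fell by 0.56 (0.10, adjusted p = 0.0406), Bola3 by 0.56 (0.13, adjusted p = 0.0438) and Gpx4 by 0.48 (0.12, adjusted p = 0.0497). After the length and GC correction 0 of the 86 genes were called by edgeR in this comparison, and 0 of all tested genes. Of the 86, 11 had an unadjusted p under 0.05 in that fit, beside 2201 of all tested genes. Gpx4 was at −0.02 and Ireb2 at 0.14. Without naïve mouse 1 or 2, without vehicle mouse 2, or without TD139 mouse 2 or 3, edgeR called 0 of the 86 as well, and 0 of all genes, of which 2848 to 4368 had an unadjusted p under 0.05, and without naïve mouse 3 there were 13 beside 2679 of all genes.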

How the data were processed

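The authors deposited, for each mouse and each of 2 sequencing runs, whole-number counts of reads per gene symbol made with RNA Express, without scaling (build mm10 per the submitters' processing notes; aligner settings not given in the sources used here). Libraries were stranded, from poly(A) RNA, read from a single end. The 2 runs of a mouse were added up, and the mouse was the replicate. Between runs of a mouse the chi-square per degree of freedom was 1.63 to 1.8, and between mice of a group 16.7 to 73.1. The deposited labels give mice, so p-values measure the spread between mice. The members and all gene lists were chosen with earlier results of these data known. Reads outside genes (16.5 to 22.8%) and ambiguous reads were left out. All 3 groups were fitted together in edgeR 4.0.16 (R 4.3.3) with filterByExpr, TMM and the robust quasi-likelihood test, and p-values were adjusted over all 15196 tested genes by Benjamini and Hochberg, with calls at 0.05. A standard error is the log2 fold change divided by the root of the F statistic. Lengths, positions and hairpins came from GENCODE M21, to which 98.4% of the symbols were joined. The correction fitted a spline with 4 degrees of freedom per mouse on length and GC content as an offset. Log2 CPM for likeness used a prior count of 2. Other alternatives were DESeq2 1.42.0, limma 3.58.1 (voom with quality weights), RLE or library size alone, other filters, single runs, only the groups compared, the replicate block and leaving out each mouse. Steps were tested on simulated data.
Named genes are all members, and, in each iron list, the acute phase and the lipocalin list, up to 4 called genes per direction and comparison with the largest change and the 2 with the highest mean CPM, and in marker lists the 3 highest and those at 0. Flvcr1, Flvcr2 and Ly6g were not analysed here, and 1 gene that the rule names is not reported here. Counting intervals and the floor cover counting error only.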

Additional observations from a re-analysis of the deposited data

Results flagged for a closer look

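The share of reads outside annotated genes, which enters no comparison of the 10 genes, was 21.3%, 22.8% and 22.6% in TD139 mice 1, 2 and 3, above the 19.1 to 19.9% of naïve mice and the 16.5 to 19.4% of vehicle mice. The reads behind it carry no gene name in the files, and its relation to the trend with transcript length was not tested. With 3 mice in each group, no mouse was tested as an outlier.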

How the results depend on the processing

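For vehicle against naïve mice, the 9 other iron genes called became 16 with DESeq2, 20 with limma voom and 15 with the length and GC correction, and 0 to 11 without a mouse. The 4 members called became 7 with voom, and 0 to 6 without a mouse. Beside these, 7.8% of all tested genes were called in the main fit, 15.9% with DESeq2, 22.5% with voom and 14.1% with the correction. Without a mouse the share was between 0.00647% and 12.8%. For TD139 against vehicle mice, the 29 other iron genes became 16 with the correction, and 8 to 34 without a mouse, and the 6 members 2 to 7 without a mouse. Of all tested genes 33.4% were called in the main fit, 19.5% with the correction and 10.5 to 38.4% without a mouse. For TD139 against naïve mice, the 6 other iron genes became 14 with DESeq2, 29 with voom and 0 with the correction. They became 0 with only the groups compared, and 0 to 13 without a mouse. The 0 members became 1 with DESeq2, 3 with voom, and 0 to 2 without a mouse. Of all tested genes 5.1% were called in the main fit, 17.02% with DESeq2, 36.05% with voom and 0 with the correction. Without a mouse the share was between 0 and 17.36%. The cause of these moves was not tested. Fits without a mouse moved in both directions: for vehicle against naïve mice, edgeR called 1 of all genes without naïve mouse 2. It called 1982 without TD139 mouse 1, in place of 1185. No member called with all mice changed sign under the alternatives run.
The replicate numbers did not pair the mice: same-numbered mice of different groups had correlations of their deviations between −0.26 and 0.28. With the replicate block, 2 members were called for vehicle against naïve mice, beside 5.92% of all tested genes. For TD139 against naïve mice 0 other iron genes were called with it, and 0 of all tested genes. Scaling by library size only moved the median of all log2 fold changes to 0.09 for vehicle against naïve and to −0.10 for TD139 against vehicle mice, and Slc11a2, at −0.03 before, moved to 0.07 in the former. Depth limits the lowest values most, such as the 63 counts of Slc40a1 in naïve mouse 2 and the 59 counts of Hmox1 in TD139 mouse 3.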

Other observations

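Lcn2 is also an acute phase gene and a member of the lipocalin family, and both lists were looked at. Of 19 acute phase genes 7 were tested, with 2 higher and 0 lower in vehicle than in naïve mice and 4 lower in TD139 than in vehicle mice (edgeR, adjusted p-value under 0.05), where 4.91% of all tested genes were higher in the former and 16.2% lower in the latter comparison. Serpina3n, a serine protease inhibitor, was at 10.8, 15.2 and 17.4 CPM in naïve, 148, 132 and 432 CPM in vehicle and 35.9, 8.18 and 6.83 CPM in TD139 mice. It rose by 4.04 (standard error 0.86, adjusted p = 0.0434) and differed by −3.80 (0.85, adjusted p = 0.0184) in TD139 against vehicle mice. The protease inhibitor A2m rose by 2.34 (0.32, adjusted p = 0.0127) and differed by −2.38 (0.32, adjusted p = 0.005). Cd14 and Lbp, which bind bacterial lipopolysaccharide, were lower in TD139 than in vehicle mice by log2 fold changes of −1.39 and −3.97, with Lbp under 1 CPM in every mouse. As for Lcn2, Cp and Steap4, TD139 mouse 1 had the highest Serpina3n and A2m of its group.
Of 16 lipocalin family genes 4 were tested. Ptgds, the brain-type prostaglandin D synthase and the most abundant, was at 126, 245 and 91.7 CPM in naïve, 198, 595 and 156 CPM in vehicle and 210, 70.7 and 73.4 CPM in TD139 mice, and its groups overlapped in each comparison. Apod was lower in TD139 than in vehicle mice (log2 fold change −2.72, standard error 0.92, adjusted p = 0.0494 in edgeR), and was highest in vehicle mouse 2, at 8.04 CPM.
Rod photoreceptor markers together lay at 78300 to 89900 CPM in naïve, 45600 to 63600 CPM in vehicle and 64100 to 79800 CPM in TD139 mice. The endothelial markers summed to 173 to 258, 326 to 473 and 226 to 462 CPM in the same order, where TD139 mouse 1 was at 462 CPM. Both sexes occurred in each group, though not evenly: Xist was at 921 CPM or more in naïve mice 2 and 3, vehicle mouse 3 and TD139 mouse 2, and at 1.75 CPM or less in the other 5 mice. Vehicle mouse 3 also had the highest Lcn2 and Hmox1 of its group, and the part of sex in these values was not tested.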
